A study of Mus musculus with 686 samples.

Results

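The miR-148 and miR-152 family was followed through 13 mouse tissues as the CPM of its 3 members, miR-148a-3p, miR-148b-3p and miR-152-3p, where CPM is the count of a miRNA per 1000000 miRNA counts of the same library. The members were taken by name, as mmu-miR-148a-3p, mmu-miR-148b-3p and mmu-miR-152-3p, 3 of the 1964 miRNAs listed, and liver and pancreas were set against the other 11 tissues. The 686 libraries came from 83 female BALB/cAnNTac mice aged 3 or 8 months, none with an engineered allele in the labels, and all mice ate NASA Nutrient Food Bars. Spaceflight mice (FL) lived on the International Space Station, habitat ground controls (HGC) lived on Earth at the housing density, temperature, humidity and CO2 of the flight mice, and vivarium ground controls (VGC) lived in standard cages. In Live Animal Return (LAR) the flight mice stayed on orbit longer than in the second collection and came back to Earth alive. Their tissues were snap frozen some days after landing. Controls were collected alike, which gave 114 FL, 113 HGC and 121 VGC libraries. In ISS termination (TERM) flight mice were killed on orbit and frozen as whole carcasses that were thawed for dissection on Earth, with controls treated alike, which gave 115 FL, 114 HGC and 109 VGC libraries. Spleen of TERM was kept in RNAlater. The day of collection and the preservation therefore changed together between LAR and TERM in every arm and cannot be told apart. The length of the flight and the return to gravity came with them in FL alone. LAR was set against TERM over the 3 arms together, and the arms were not compared for that difference. Brain of LAR and pancreas of TERM held mice of 3 months alone, and pancreas of TERM had 4 FL, 5 HGC and 2 VGC libraries. Each library came from homogenized tissue with all its cell types, so that fewer cells of a type and less of a miRNA per cell cannot be told apart.

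A miRNA is a short RNA that guides Argonaute to messenger RNAs, chiefly through its seed, the bases 2 to 8 from the 5′ end, and lowers their stability and translation. Members of a family share the seed and so a large part of their possible targets, while the rest of the sequence and the site of expression differ. The miR-148 and miR-152 seed is known from liver, where the LDL receptor and the cholesterol exporter ABCA1 are among its described targets, and from work on the DNA methyltransferase DNMT1. The miR-148a gene stands alone, whereas miR-148b and miR-152 lie in genes of the coatomer zeta subunits, which coat vesicles of the early secretory pathway.

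The mature sequences are shown because the seed defines the family and because the few bases after it are all that tells the members apart. They are from RefSeq on GRCm38.p6, matched by name, and capitals mark the seed.
miR-148a-3p: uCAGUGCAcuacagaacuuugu
miR-148b-3p: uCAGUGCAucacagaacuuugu
miR-152-3p: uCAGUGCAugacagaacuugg
Counted from the 5′ end, miR-148a-3p and miR-148b-3p had the same base at 20 of 22 positions and differed at positions 9 and 10. miR-148a-3p and miR-152-3p were the same at 18 of the 21 positions they share and differed at 9, 10 and 20. miR-148b-3p and miR-152-3p were the same at 19 of 21 and differed at 10 and 20. Of the 1673 listed miRNAs with a RefSeq sequence, 3 carried CAGUGCA at bases 2 to 8, and they were these 3. No count of a member carried a fraction in any library, so none had been divided between members in the deposited values.

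On GRCm38.p6, miR-148a-3p lies at chr6:51269829-51269850 on the minus strand, in the exon of its own miRNA gene and in no protein-coding gene. miR-148b-3p lies at chr15:103285185-103285206 on the plus strand, in an intron of Copz1, and the 4 annotated transcripts of that gene have no exon there. miR-152-3p lies at chr11:96850439-96850459 on the plus strand, in an intron of Copz2, outside the exons of its 3 transcripts. The counts themselves were made on GRCm39 and carry no positions.

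Many libraries stood apart from their tissue labels. With the members and their other strands left out, 166 of the 686 libraries had a miRNA profile closest to the median profile of another tissue. The median correlation with the labelled tissue was 0.133 in those libraries and 0.892 in the others. They made up 46 of the 57 libraries of mesenteric adipose tissue (MAT), of which 21 were closest to pancreas, and 7 of 58 in liver, 4 of 39 in pancreas and 0 of 25 in brain. The other tissues, which were brown (BAT), subcutaneous (SCAT) and gonadal (GAT) adipose tissue, diaphragm, lung, heart, kidney, thymus and spleen, had between 7 and 20 such libraries each. Where leaving them out changed a call, a direction or a step between tissues given here for a member, the value without them is given too. The miRNA counts of a library lay between 0.431 and 16.9 M for LAR and between 0.181 and 30.5 M for TERM, where M is 1000000 counts, and no member was at 0 in any library. The lowest counts were 17 for miR-148a-3p, 6 for miR-148b-3p and 6 for miR-152-3p. The 6 counts of miR-148b-3p, in a diaphragm library, correspond to 5.12 CPM with a 95% Wilson interval of 2.35 to 11.2 CPM for counting error alone.

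Pancreas held the highest median CPM of each member, which is a level per miRNA count. miR-148a-3p was at 20490 CPM in the median pancreas library, with a lowest of 359 and a highest of 34530 (n = 39), and it was the 13th most abundant of the 1964 miRNAs there by tissue median. In liver its median was 2159 CPM, from 98.5 to 19705 (n = 58), and its rank was 46. The pancreas and liver ranges overlapped over all libraries. Among the libraries with the profile of their own tissue, liver ran from 1040 to 3883 CPM (n = 51) and pancreas from 974 to 34530 (n = 35), with medians of 2221 and 22163 CPM. Spleen followed at a median of 646 CPM and MAT at 629. SCAT, thymus, BAT and GAT lay between 441 and 349, heart at 120, lung at 107, kidney at 95.9, diaphragm at 57.8 and brain at 35.7 CPM. The gap between neighbours in this order was larger than the larger of their SDs on the log2 scale at 3 places, between pancreas and liver (3.25 against an SD of 1.66), between liver and spleen (1.74 against 1.22) and between GAT and heart (1.53 against 1.04). The other neighbours did not differ beyond their spread. In the libraries with their own profile the step from kidney to diaphragm was larger as well (1.20 against 1.11), and BAT was the tissue above heart (1.28 against 0.600).

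As CPM of miRNA counts, miR-152-3p had a level in pancreas that no other tissue approached in the median. Its pancreas median was 3212 CPM, from 99.6 to 15658 (n = 39). MAT came next at 385 CPM, and kidney at 353 and liver at 323 followed. SCAT, GAT, BAT, lung, thymus and spleen lay between 297 and 226, and heart at 164, diaphragm at 94.9 and brain at 31.4 CPM ended the order. The step from pancreas to MAT (3.06 on the log2 scale against an SD of 1.60) and the step from diaphragm to brain (1.56 against 1.41) were larger than the spread. From MAT to diaphragm no step was, but in the libraries with their own profile the step from heart to diaphragm was (1.01 against 0.489).

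miR-148b-3p was the least abundant member in all tissues but brain and varied least between tissues. Its median was 188 CPM in pancreas, 122 in spleen, 109 in liver, 89.0 in kidney, 85.3 in MAT, 80.1 in thymus, 73.6 in lung, 64.3 in GAT, 55.0 in BAT, 54.0 in SCAT, 51.6 in brain, 38.8 in heart and 19.0 in diaphragm. No step between neighbours was larger than the larger SD over all libraries, and 1 was in those with their own profile, from heart to diaphragm (1.25 against 0.707 on the log2 scale). In pancreas its libraries ran from 26.9 to 450 CPM and in liver from 19.1 to 288 CPM, so that the ranges overlapped up to 288 CPM, with the third quartile of pancreas at 270.4 and that of liver at 189 CPM.

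**Figure D1:**
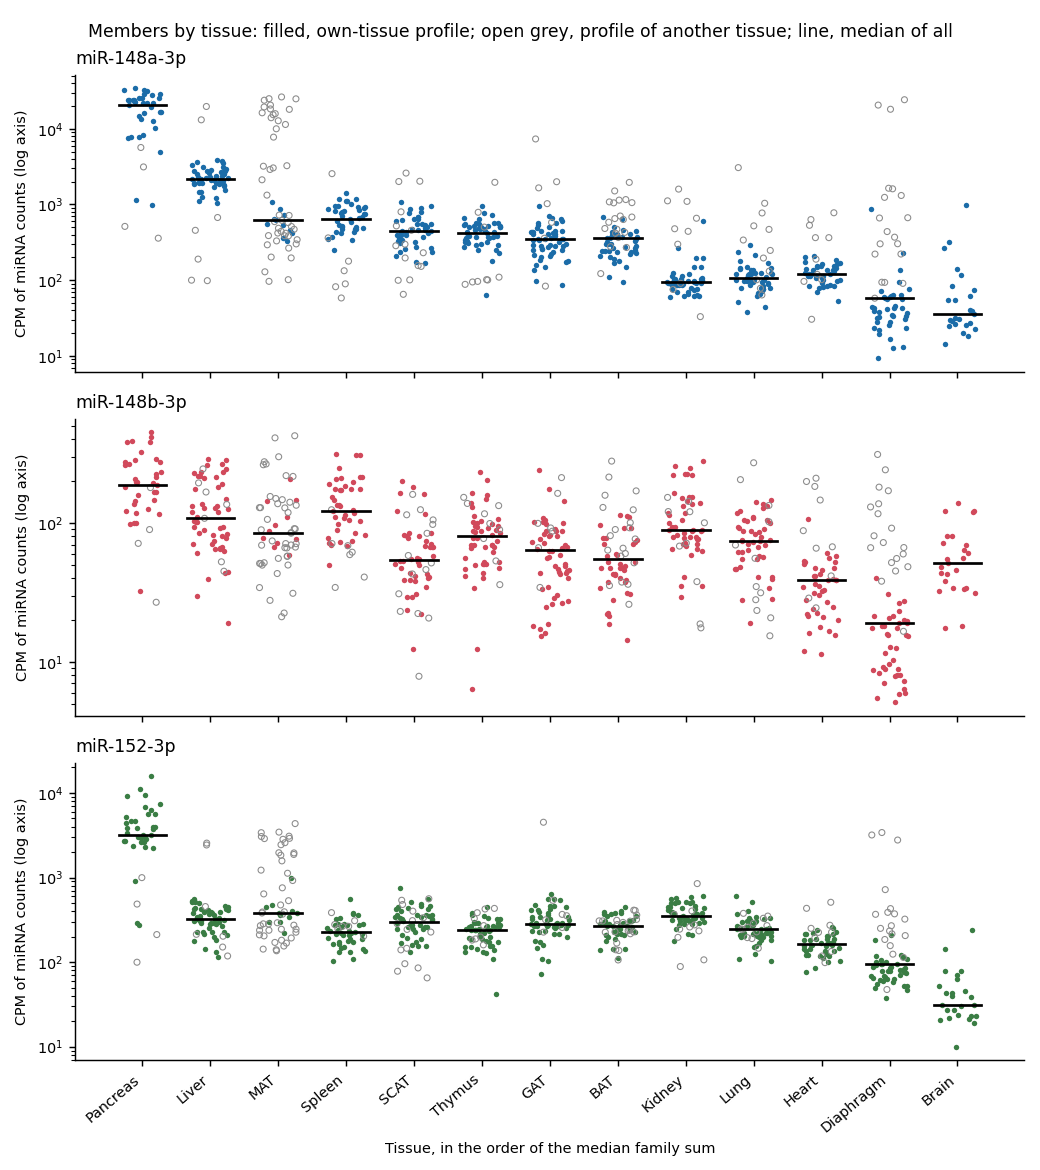
Levels of the 3 members in each of the 686 libraries, as CPM on a log axis, by tissue. Filled points are libraries with the profile of their own tissue, open grey points are the 166 closest to another tissue, and the black line is the median of all libraries. miR-148a-3p and miR-152-3p stand highest in pancreas, while the open points of MAT and diaphragm reach up to the pancreas level.

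As a sum, the family took 24508 CPM in the median pancreas library, 2607 in liver and 1151 in MAT, and 134 in brain. The members are 21 or 22 bases long, so their CPM can be set side by side, although any difference in ligation between the sequences was not measured. miR-148a-3p made up 84.9% of the family counts in pancreas and 83.4% in liver (medians over libraries), and 63.6% in spleen. In kidney it made up 17.2% and in lung 25.3%. miR-152-3p was the larger part there, with 64.3% in kidney, 56.2% in lung and 55.9% in diaphragm. In brain miR-148b-3p was the largest part at 40.5%, with miR-148a-3p at 32.2% and miR-152-3p at 26.7%. The quartiles of these brain shares overlapped (32.6% to 46.2% for miR-148b-3p and 25.2% to 41.5% for miR-148a-3p). miR-148b-3p made up 4.32% of the family in liver and 0.895% in pancreas.

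**Figure D2:**
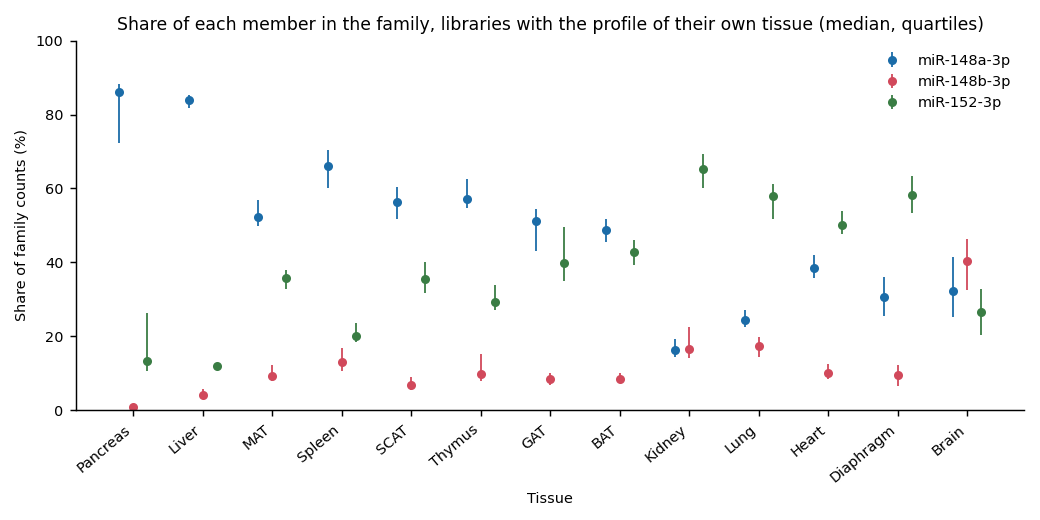
Share of each member in the family counts (%) by tissue, over the libraries with the profile of their own tissue. Points are medians and bars run from the first to the third quartile. miR-148a-3p leads in pancreas and liver, miR-152-3p in kidney, lung, heart and diaphragm, and miR-148b-3p in brain.

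Liver and pancreas of the same mouse could be compared in 38 mice by the ratio of 1 member to another, which does not depend on the scaling of the library. The ratio of miR-148a-3p to miR-148b-3p was lower in liver than in pancreas in 33 of 38 mice, by a mean of 1.93 ± 1.67 on the log2 scale (SD). Liver had a mean log2 ratio of 4.16 and pancreas of 6.09 (two-sided paired permutation test with 100000 resamples, Benjamini-Hochberg p over 3 ratios 3e-05). The ratio of miR-152-3p to miR-148b-3p was lower in liver in 35 of 38 mice, by 2.37 ± 1.37 (same test, p = 3e-05). Both unadjusted p-values were 2e-05, the smallest that these resamples can give. The ratio of miR-148a-3p to miR-152-3p was higher in liver in 23 of 38 mice, by 0.43 ± 1.60, which did not pass the test (permutation p = 0.103). In the 29 mice with both libraries on their own tissue profile it was higher by 0.78 ± 1.24 (permutation p = 0.00078). This ratio differed by collection. In the 19 such mice of LAR it was higher in liver in 9, by a mean of 0.13 ± 0.547, and in the 10 of TERM it was higher in 9, by 2.02 ± 1.26, so that the pooled difference rested on TERM. The other 2 ratios were lower in liver in both collections, by 2.24 and 2.09 in LAR (27 mice) and by 1.18 and 3.04 in TERM (11 mice).

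The difference between the tissues was then tested for each member with edgeR's quasi-likelihood test over all 686 libraries. Benjamini-Hochberg adjustment was over the 1427 miRNAs that passed the filter on low counts. The fit had no mouse term, so tissues of the same mouse counted as separate libraries. In liver against the mean of the 11 tissues other than liver and pancreas, miR-148a-3p was higher by 3.20 ± 0.162 on the log2 scale (SE, adjusted p = 2.58e-67). miR-148b-3p was higher by 1.53 ± 0.104 (adjusted p = 3.13e-41) and miR-152-3p by 1.22 ± 0.110 (adjusted p = 2.99e-25). All 3 members passed in the higher direction, where 25.9% of all miRNAs tested did, and 61.3% passed in either direction. The median log2 difference over all miRNAs was -0.27. In pancreas against the same 11 tissues, miR-148a-3p was higher by 4.81 ± 0.177 (adjusted p = 8.16e-108) and miR-152-3p by 3.55 ± 0.108 (adjusted p = 9.40e-139). All 3 members again passed in the higher direction, which 18.9% of all miRNAs did, with 53.8% in either direction and a median of -0.50.

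For miR-148b-3p in pancreas the direction depended on the scaling. It was higher by 1.05 ± 0.131 (edgeR, adjusted p = 4.29e-14), but on counts per 1000000 over all 7 RNA classes (called rpmm here, in place of the study's reads per 1000000 mapped) it was lower by 0.32 (limma, adjusted p = 0.0227) or by 0.18 (Wilcoxon, adjusted p = 0.241). miRNAs took a median of 1.88% of the counts of the 7 classes in pancreas and 9.94% in liver. The other 5 tissue differences kept their direction under all alternatives run, but their size changed. In pancreas the alternatives ran from 3.62 to 6.33 for miR-148a-3p and from 1.68 to 4.49 for miR-152-3p. Without the libraries that had the profile of another tissue, the liver differences were 3.92, 1.55 and 1.22 for miR-148a-3p, miR-148b-3p and miR-152-3p. The pancreas differences were 6.33, 1.62 and 4.25. Those libraries were left out for their tissue miRNAs, which can by itself widen a difference between tissues. The values are thus no independent check. Hepatocyte and acinar markers were checked against the labels. The hepatocyte miRNAs miR-122-5p and miR-122-3p summed to a median of 341563 CPM in liver and 963 in pancreas. The acinar miRNAs miR-216a-5p, miR-216b-5p and miR-217-5p summed to a median of 36139 CPM in pancreas and 4.50 in liver.

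**Figure D3:**
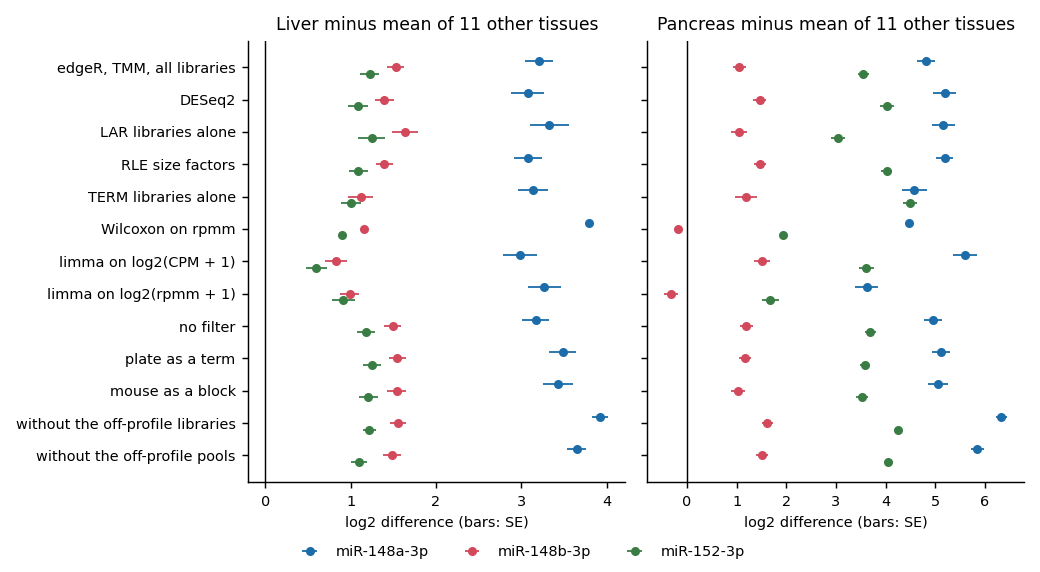
Log2 difference of each member between liver (left) or pancreas (right) and the mean of the 11 other tissues, for the fit over all libraries (top) and each alternative. Bars are SEs, and the Wilcoxon setting has none. All liver values lie above 0, and in pancreas miR-148b-3p alone falls below 0, at the 2 settings on rpmm.

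The other strand of each precursor was less abundant than the member in each tissue as a sum. Summed over the libraries of a tissue, counts of the 3p strand exceeded those of the 5p strand by 564 to 1469 times for miR-148a, by 43.9 to 79.0 times for miR-152 and by 4.07 to 9.77 times for miR-148b. In single libraries miR-148b-5p reached 59.2% of the counts of both strands in MAT and 50.0% in SCAT, whereas miR-152-5p reached at most 17.8% and miR-148a-5p 2.14%. miR-148a-5p was at 0 counts in 240 libraries, miR-152-5p in 12 and miR-148b-5p in 1. In a library of the lowest depth a count of 0, with a limit of 3 counts, allows up to 16.5 CPM, and at the highest depth 0.0985 CPM. In liver all 3 of these strands were higher as well, miR-148a-5p by 2.92, miR-148b-5p by 1.30 and miR-152-5p by 1.25 (edgeR, log2). In pancreas miR-148a-5p was higher by 4.61 and miR-152-5p by 3.08, whereas miR-148b-5p did not pass (-0.03 ± 0.123, adjusted p = 0.875).

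Likeness between miRNAs was described by Pearson's r over the 13 tissue medians of log2(CPM + 1), among 599 miRNAs that reached 10 CPM in the median of a tissue. These medians share libraries and scaling, so no test was made. For miR-148a-3p the most alike were miR-148a-5p (r = 0.91), miR-1291 (0.85), miR-802-5p (0.83), miR-1191a (0.83) and miR-152-5p (0.82). For miR-152-3p they were miR-152-5p (0.97), miR-148a-5p (0.81), miR-27b-3p (0.80), miR-193a-3p (0.80) and miR-1291 (0.80). For miR-148b-3p they were miR-33-3p (0.90), miR-362-3p (0.89), let-7g-3p (0.88), miR-29b-3p (0.88) and miR-362-5p (0.87), and neither strand of another member was among them. Between members r was 0.87 for miR-148a-3p and miR-152-3p, 0.76 for miR-148a-3p and miR-148b-3p, and 0.70 for miR-148b-3p and miR-152-3p. Over the 11 tissues without liver and pancreas these fell to 0.73, 0.61 and 0.51.

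Among 10 miRNAs chosen for a described role in lipoprotein and cholesterol control, liver had 6 higher, 1 lower and 3 that did not pass (of all miRNAs 25.9% were higher and 35.4% lower), with a median log2 difference of 0.42 over the list and -0.27 over all miRNAs. miR-122-5p, the main miRNA of hepatocytes, was higher by 7.60 and miR-33-5p, which lies in the gene of the sterol regulator SREBP-2, by 1.62, while miR-128-3p was lower by 0.55 (edgeR, liver against the 11 tissues). Pancreas had 5 higher, 2 lower and 3 that did not pass (18.9% and 34.9% of all miRNAs), with a median of 0.12 over the list. miR-130b-3p led there at 2.39, and miR-30c-5p was lower by 0.71. The miR-29 family, whose described targets include the de novo DNA methyltransferases, had 3 of 3 members higher in both tissues, beside the same shares. Its values ran from 0.66 for miR-29a-3p to 1.74 for miR-29c-3p in liver and from 0.28 to 2.17 in pancreas.

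MAT, the fat along the gut, had libraries spread over a wide range of family levels. miR-148a-3p ran there from 96.5 to 26334 CPM. The median was 10699 CPM in LAR (129 to 26334, n = 28) and 470 CPM in TERM (96.5 to 3252, n = 29). miR-152-3p had medians of 1397 CPM in LAR and 245 CPM in TERM, and miR-148b-3p of 88.5 and 77.6 CPM. The LAR and TERM ranges overlapped for all 3.

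The acinar miRNAs miR-216a-5p, miR-216b-5p and miR-217-5p moved with the levels of miR-148a-3p and miR-152-3p. Their sum reached 1000 CPM, a limit set for this description, in 20 LAR and 3 TERM libraries of MAT. In those 23 libraries miR-148a-3p had a median of 13994 CPM, from 883 to 26334. In the other 34 its median was 423 CPM, from 96.5 to 2120. Pearson's r of the log2 levels of miR-148a-3p and the acinar sum was 0.90 over the 57 MAT libraries, and it was 0.86 for miR-152-3p and 0.37 for miR-148b-3p. In the MAT libraries below that limit the medians of miR-148a-3p were 364 CPM in LAR (129 to 735, n = 8) and 442 CPM in TERM (96.5 to 2120, n = 26). miR-375-3p, the islet miRNA, had medians of 26445 CPM in MAT of LAR and 477 CPM in MAT of TERM.

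Diaphragm, the breathing muscle, held few libraries with high acinar miRNAs. The acinar sum reached 1000 CPM in 5 of its 59 libraries, and miR-148a-3p had a median of 18108 CPM in those, from 1241 to 24202, and of 55.9 CPM in the other 54. In liver 2 of 58 libraries reached that sum, both from FL mice of LAR, and they held the highest levels of miR-148a-3p in liver, 13130 and 19705 CPM. The part of pancreatic tissue in these levels was not tested.

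**Figure D4:**
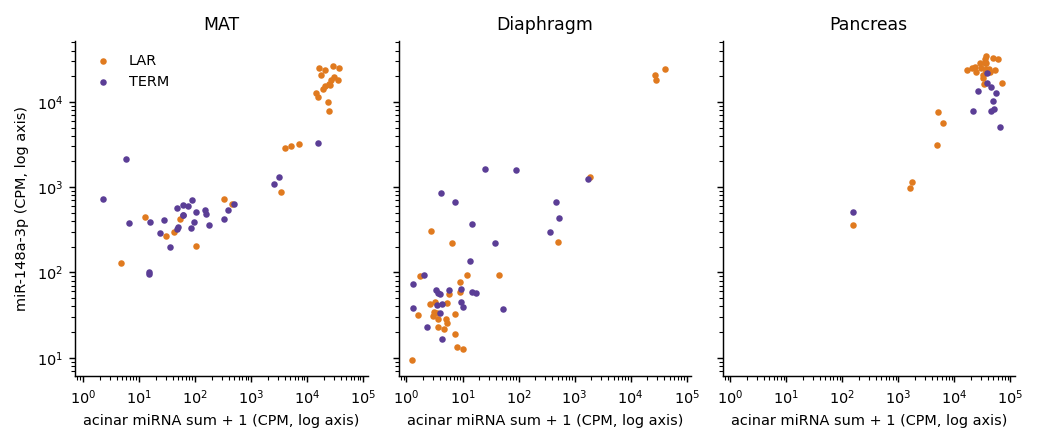
miR-148a-3p (CPM, log axis) against the sum of the acinar miRNAs miR-216a-5p, miR-216b-5p and miR-217-5p plus 1 (CPM, log axis) in MAT, diaphragm and pancreas, 1 point per library, coloured by LAR and TERM. The MAT libraries with a high acinar sum, 20 of them from LAR, lie at the level of pancreas libraries.

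LAR was set against TERM in each tissue with age in the fit, which asks whether the family differed between mice collected on Earth after the return and mice collected on orbit, with their controls. Of 39 pairs of member and tissue, 4 passed (edgeR, adjusted over the miRNAs of each tissue), where 6.59% of all miRNAs did. Of these, 3 were in MAT, where 37.5% of all miRNAs passed. There miR-148a-3p was higher in LAR by 4.24 ± 0.521 (log2, SE, adjusted p = 3.83e-08), miR-152-3p by 2.63 ± 0.308 (adjusted p = 6.07e-09) and miR-148b-3p by 0.72 ± 0.247 (adjusted p = 0.0183). Without the libraries closest to another tissue, which leaves 4 LAR and 7 TERM libraries of MAT, the values were 0.42 (adjusted p = 0.710), 0.54 (adjusted p = 0.620) and -0.23 (adjusted p = 0.953), so that no MAT call remained. The fourth was miR-148b-3p in SCAT, lower in LAR by 0.65 ± 0.188 (adjusted p = 0.0397), where 3.56% of all miRNAs passed. Its libraries ran from 7.89 to 164 CPM in LAR with a median of 43.9 and from 23.1 to 201 CPM in TERM with a median of 70.9, and they overlapped. Without the libraries closest to another tissue it was -0.65 (adjusted p = 0.0476). It passed in 4 of 10 alternatives and was lower in LAR in all of them, and it did not pass with RLE, without the filter, by Wilcoxon, by limma on CPM or rpmm, or with the replicate block, where the adjusted p was highest at 0.777.

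In pancreas miR-148a-3p was the more abundant of the 2 leading members by its median in both collections, and the distance between them was smaller in TERM. miR-148a-3p had a median of 23325 CPM in LAR (359 to 34530, n = 28) and of 10137 CPM in TERM (513 to 21928, n = 11). miR-152-3p had a median of 2961 CPM in LAR (212 to 6824) and of 5668 CPM in TERM (99.6 to 15658). The ratio of miR-148a-3p to miR-152-3p had a median of 7.04 in LAR (1.70 to 10.5) and of 1.60 in TERM (0.320 to 7.30), and of 7.05 in the 15 LAR libraries of 3-month mice. This ratio was singled out after its values were seen and was not tested. In liver it was 6.92 in LAR and 7.03 in TERM. In pancreas libraries with their own profile the medians were 7.27 in LAR (n = 25) and 1.53 in TERM (n = 10). Neither member passed by itself in pancreas over all libraries, with 0.78 ± 0.533 for miR-148a-3p (adjusted p = 0.338) and -1.13 ± 0.506 for miR-152-3p (adjusted p = 0.119) in edgeR. There 14.9% of all miRNAs passed, and the median log2 difference was 0.42. Without the libraries closest to another tissue miR-152-3p passed, lower in LAR by 1.17 ± 0.395 (adjusted p = 0.0329), and leaving out the FL library of TERM with the profile of MAT alone gave -1.34 (adjusted p = 0.0260). On rpmm it was at 0.07 (limma, adjusted p = 0.936). miR-148a-3p passed without the pools rich in libraries of another profile (1.11 ± 0.341, adjusted p = 0.0178). Summed over tissues, 6.76% of all miRNAs passed without the libraries of another profile and 9.46% without those pools. miRNAs took a median of 2.36% of the counts of the 7 classes in pancreas of LAR and 0.928% in TERM, and their part in the ratio was not tested.

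In liver the LAR and TERM libraries overlapped for each member, and over all libraries none passed. miR-148a-3p had medians of 2322 CPM in LAR (98.5 to 19705, n = 29) and 2053 CPM in TERM (100.0 to 3329, n = 29), with a difference of 0.34 ± 0.241 (edgeR, adjusted p = 0.777). Without the libraries closest to another tissue it was 0.28 ± 0.0829 and passed (adjusted p = 0.0336), as did miR-148b-3p in thymus (-0.57 ± 0.197, adjusted p = 0.0193). Over all libraries 2.41% of all miRNAs passed in liver and 16.3% in thymus. Without the libraries closest to another tissue 6.76% passed, summed over tissues. Of the 4 calls made over all libraries, miR-148b-3p in SCAT was the 1 that also passed without them, with the losses under other settings given above.

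The 11 TERM pancreas libraries gave the following values of these 2 members. In the 4 FL libraries miR-148a-3p was at 513, 5009, 7788 and 16777 CPM and miR-152-3p, in the same order of libraries, at 99.6, 15658, 3002 and 2299 CPM. In the 5 HGC libraries miR-148a-3p was at 7754, 8327, 10137, 12856 and 14800 CPM and miR-152-3p at 5658, 5668, 9449, 11238 and 9258 CPM. In the 2 VGC libraries miR-148a-3p was at 13402 and 21928 CPM and miR-152-3p at 5199 and 7468 CPM. miR-152-3p was above miR-148a-3p in 1 library, of an FL mouse, and the FL library at 513 CPM had the profile of MAT. For miR-148a-3p the lower VGC library was above 3 of the 4 FL libraries and 4 of the 5 HGC libraries, and below the highest of each. For miR-152-3p the 3 arms overlapped.

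Spaceflight was compared with the matched housing, FL against HGC, in each tissue and collection. In LAR no member passed in any of 39 pairs of member and tissue (edgeR), where 1.42% of all miRNAs did. At an unadjusted p under 0.05 there were 5 pairs, and DESeq2, the Wilcoxon test and limma on rpmm called 1 pair each. The 1.42% is the share in edgeR. Here and below, no share of all miRNAs is given for another setting unless stated. The log2 differences ran from -1.36 to 1.39 with a median of 0.11. Outside liver, the 4 pairs at an unadjusted p under 0.05 were miR-148a-3p and miR-148b-3p in BAT, miR-148b-3p in heart and miR-148a-3p in lung. miR-148a-3p in BAT was at 193 to 1957 CPM in FL with a median of 393 and at 95.6 to 481 CPM in HGC with a median of 252, a difference of 1.08 ± 0.387 (edgeR, adjusted p = 0.0703) that DESeq2 called. Of these BAT libraries 3 of 10 in FL and 1 of 10 in HGC were closest to another tissue, and the FL library at 1957 CPM was closest to liver, with miR-122-5p, the defining hepatocyte miRNA, at 287175 CPM. The difference was 0.42 ± 0.237 without the libraries closest to another tissue (adjusted p = 0.702). That of miR-148b-3p in BAT was 0.89 with them and 0.31 without. That of miR-148b-3p in heart was -1.36 with them and -1.35 without, and did not shrink as the others did. Heart held 6 FL and 6 HGC libraries, of which 1 each were closest to another tissue. In lung miR-148a-3p was at 66.1 to 1037 CPM in FL with a median of 127. In HGC it was at 51.7 to 118 CPM with a median of 80.6 (1.39 ± 0.416, adjusted p = 0.103). The FL library at 1037 CPM was the LAR lung library with an acinar sum above 1000 CPM, described above for MAT. The lung difference was 0.59 ± 0.217 without the libraries closest to another tissue (adjusted p = 0.258).

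In liver of LAR, miR-148a-3p was at 1559 to 19705 CPM in FL with a median of 2989 (n = 10) and at 673 to 2720 CPM in HGC with a median of 1973 (n = 9). The VGC libraries lay between 98.5 and 3791 CPM with a median of 2275 (n = 10), and the 3 arms overlapped. The difference between FL and HGC was 0.89 on the log2 scale with a 95% interval from its SE of -0.06 to 1.84 (edgeR, adjusted p = 0.338). Without the libraries closest to another tissue, which include the 2 FL libraries with the acinar miRNAs, FL ran from 1559 to 3883 CPM with a median of 2810 (n = 8) and HGC from 1476 to 2720 with a median of 2097 (n = 8), and the difference was 0.30 ± 0.163 (adjusted p = 0.388).

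miR-152-3p in liver of LAR was at 225 to 2550 CPM in FL with a median of 392 and at 183 to 499 CPM in HGC with a median of 290. The difference was 0.80 with an interval of 0.17 to 1.42 (edgeR, adjusted p = 0.154), and 0.22 ± 0.178 without the libraries closest to another tissue. miR-148b-3p there had medians of 203, 132 and 103 CPM in FL, HGC and VGC, and a difference of 0.34 between FL and HGC with an interval of -0.34 to 1.01.

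In pancreas of LAR, miR-148a-3p was at 359 to 28311 CPM in FL with a median of 17644 (n = 10), at 974 to 34530 in HGC with a median of 24072 (n = 8) and at 7588 to 31401 in VGC with a median of 25153 (n = 10). FL minus HGC was -0.60 with an interval of -1.71 to 0.51 (edgeR, adjusted p = 0.690). Of these libraries 3 of 10 in FL, 0 of 8 in HGC and 0 of 10 in VGC were closest to another tissue. With those left out the differences were -0.14 ± 0.480 for miR-148a-3p (SE, adjusted p = 0.978), -0.16 for miR-152-3p and 0.06 for miR-148b-3p. Over all libraries the medians of miR-152-3p were 2578, 3914 and 2934 CPM and the difference was -0.61 with an interval of -1.58 to 0.37. For miR-148b-3p they were 162, 182 and 191 CPM and the difference was -0.22 with an interval of -0.93 to 0.49. The arms overlapped for all members, and the intervals leave room for changes of more than 1 on the log2 scale for miR-148a-3p and miR-152-3p.

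In TERM 1 of 39 pairs passed between FL and HGC (edgeR), where 0.162% of all miRNAs did. This was miR-148a-3p in lung, lower in FL by 2.61 ± 0.662 on the log2 scale (SE, adjusted p = 0.0365), and 1.80% of the miRNAs tested in that tissue passed. The FL libraries ran from 63.8 to 238 CPM (median 114, n = 10), the HGC libraries from 87.0 to 3069 CPM (median 122, n = 9) and the VGC libraries from 37.8 to 247 CPM (median 102, n = 9). FL and HGC overlapped. The library at 3069 CPM, of HGC mouse 5, held miR-122-5p at 360672 CPM and had the miRNA profile of liver, and the next highest HGC library was at 772 CPM. Without that library the difference was -0.40 ± 0.333 (adjusted p = 0.607), and without the libraries closest to another tissue it was 0.11. At 3 months alone the difference was -3.89 ± 0.822 (edgeR, adjusted p = 0.00909), -0.42 without the mice of number 5, and -0.21 without the libraries closest to another tissue. It also missed the threshold without the mice of number 1 (-3.85, adjusted p = 0.0550). That was 1 of 36 pairs at 3 months in TERM, where 0.566% of all miRNAs passed, and 1.60% in lung. At 8 months in TERM 0 of 36 passed by edgeR (0.309% of all miRNAs), with 4 at an unadjusted p under 0.05 and 0 by DESeq2. In LAR 0 of 36 passed by edgeR at 3 months (0.131% of all miRNAs, 3 pairs at that level) and 0 of 36 at 8 months (0.541%, 6 pairs), and DESeq2 called 1 pair, miR-148a-3p in lung at 3 months, which was higher in FL (1.91 ± 0.545 by edgeR, adjusted p = 0.0780, and 0.45 without the libraries closest to another tissue).

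In liver of TERM the differences between FL and HGC were 0.32 for miR-148a-3p with an interval of -0.32 to 0.95, 0.06 for miR-148b-3p with -0.54 to 0.66, and 0.15 for miR-152-3p with -0.27 to 0.56. miR-148a-3p was at 1234 to 3329 CPM in FL, at 100.0 to 2555 in HGC and at 456 to 2948 in VGC, with medians of 1916, 1997 and 2259 CPM. The arms overlapped. The HGC library at 100.0 CPM was closest to another tissue, as was 1 of 9 in VGC and 0 of 10 in FL, and without these the differences between FL and HGC were 0.20 ± 0.140 (SE) for miR-148a-3p, -0.02 for miR-148b-3p and 0.09 for miR-152-3p, none of which passed. In pancreas of TERM the intervals were wide, from -1.66 to 1.07 for miR-148a-3p, from -2.31 to 0.12 for miR-148b-3p and from -2.10 to 1.14 for miR-152-3p.

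**Figure D5:**
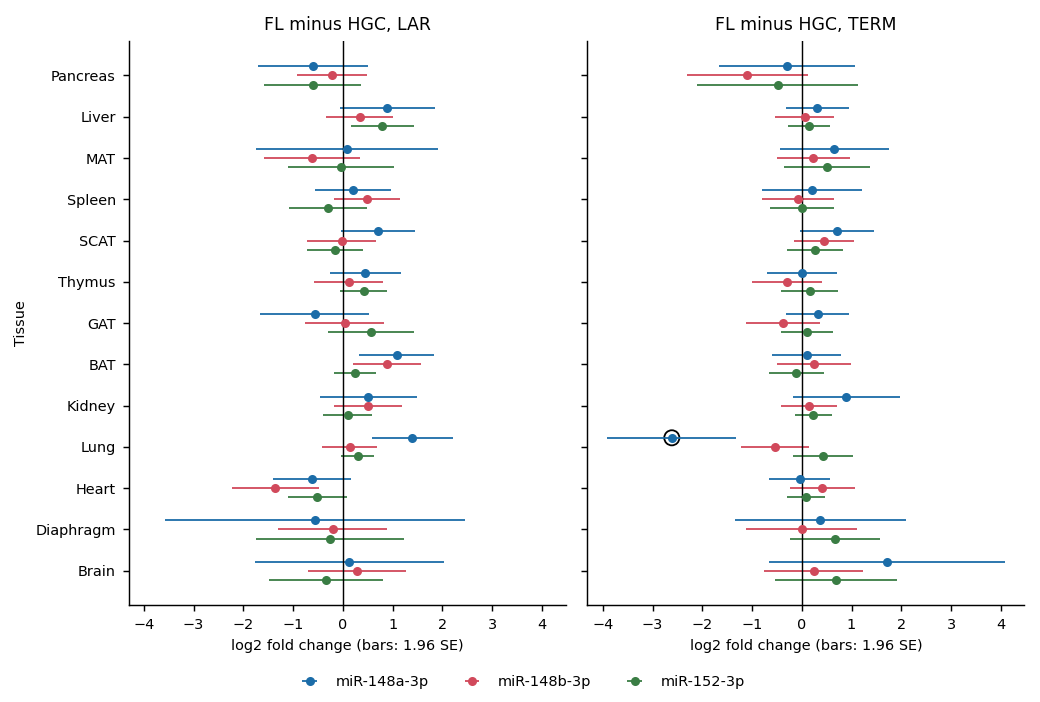
Log2 difference between FL and HGC for each member and tissue in LAR (left) and TERM (right). Bars are 95% intervals from the SE of edgeR's fit and the black ring marks an adjusted p under 0.05. The ring is at miR-148a-3p in lung of TERM, the comparison with the HGC library that had the profile of liver, and most other bars cross 0.

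The comparisons with VGC share their samples with those above. For FL against VGC no pair passed in LAR, where 0.448% of all miRNAs did and 4 pairs had an unadjusted p under 0.05, nor in TERM, with 0.744%, 0 pairs at that level and 0 pairs by DESeq2. The nearest was miR-148a-3p in GAT of LAR, lower in FL by 2.26 ± 0.581 (edgeR, adjusted p = 0.0503). Its FL libraries were at 83.4 to 429 CPM with a median of 205, and its VGC libraries at 87.1 to 7337 CPM with a median of 290, so the arms overlapped. DESeq2 and RLE size factors called this pair. The GAT library with the highest miR-148a-3p was the LAR library of that tissue with an acinar sum above 1000 CPM, and without the libraries closest to another tissue the difference was 0.26 ± 0.295 (adjusted p = 0.727). For HGC against VGC no pair passed in LAR (0.0640% of all miRNAs, 6 pairs at an unadjusted p under 0.05) or in TERM (0.194%, 3 pairs) by edgeR, and DESeq2 called 0 pairs in both collections.

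Age was compared in the 12 tissues of each collection that held both ages. In LAR no pair of 36 passed between 8 and 3 months (edgeR), where 0.0262% of all miRNAs did, 1 pair had an unadjusted p under 0.05 and DESeq2 called 0. In TERM 2 of 36 passed, where 1.23% of all miRNAs did, and both were in MAT, where 12.0% passed. There miR-148a-3p was lower at 8 months by 1.35 ± 0.397 (adjusted p = 0.0279), with a range of 96.5 to 716 CPM and a median of 445 at 8 months and of 102 to 3252 CPM with a median of 536 at 3 months. miR-152-3p was lower by 1.25 ± 0.288 (adjusted p = 0.00589), with medians of 224 and 296 CPM. The 3 MAT libraries of TERM with an acinar sum above 1000 CPM were all of 3 months. The ages overlapped, and without the libraries closest to another tissue neither passed (-0.86 with adjusted p = 0.190 and -0.11 with adjusted p = 0.882). In liver the medians of miR-148a-3p at 3 and 8 months were 2322 and 2435 CPM in LAR and 2132 and 1914 CPM in TERM, and in pancreas of LAR they were 22163 and 23674 CPM. The fitted differences of miR-148a-3p were 0.10 ± 0.402 and -0.06 ± 0.274 in liver and 0.28 ± 0.460 in pancreas.

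Whether the difference between FL and HGC depended on age was tested as an interaction. No pair of 36 passed in LAR (0.105% of all miRNAs, 1 pair at an unadjusted p under 0.05) or in TERM (1.04%, 6 pairs) by edgeR, and DESeq2 called 0 pairs in LAR and 1 in TERM, miR-152-3p in heart. The largest in TERM was miR-148a-3p in lung (3.49 ± 1.06, adjusted p = 0.0893), the comparison that holds the library with the profile of liver, and it was 0.64 without the libraries closest to another tissue. miR-148b-3p in liver of TERM had an interaction of 1.44 ± 0.584 (unadjusted p = 0.0195 by edgeR, adjusted p = 0.494), from -0.66 at 3 months to 0.77 at 8 months. FL mouse 16, of 8 months, was at 261 CPM there, and the other FL libraries lay between 19.1 and 133 CPM. The interaction without that library is not given.

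The lipoprotein and cholesterol miRNAs passed between FL and HGC in 2 of 130 pairs in LAR, both higher, and in 1 of 130 in TERM, lower, where 1.42% and 0.162% of all miRNAs did. These were miR-122-5p and miR-33-5p in BAT of LAR, where 8.25% of all miRNAs passed, and miR-122-5p in lung of TERM at -8.28. In that lung comparison 1.80% of all miRNAs passed, and its HGC library with the profile of liver was described above. With the libraries closest to another tissue left out, 0 of 120 pairs passed in LAR and 0 of 130 in TERM (edgeR), with 17 and 14 at an unadjusted p under 0.05, and miR-122-5p in lung was at -0.14 (adjusted p = 0.997). The miR-29 family passed in 0 of 39 pairs in each by edgeR, with 2 and 0 pairs at an unadjusted p under 0.05. Between LAR and TERM the lipoprotein list passed in 17 of 130 pairs, 6 higher and 11 lower. The miR-29 family passed in 3 of 39, where 6.59% of all miRNAs did. Without the libraries closest to another tissue 18 pairs of the list passed, 4 higher and 14 lower, and 2 of the family. The share of all miRNAs was then 6.76%.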

How the data were processed

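Per the labels, the study's libraries were made with the MGIEasy small RNA kit. With miRMaster 2.0 the authors assigned reads to miRBase 22.1 entries on the GRCm39 genome, and raw counts of 7 RNA classes were deposited. The deposited miRNA values are estimated counts, of which 0.790% carry a fraction. Mismatches allowed in mapping are not given in the sources used here, and no molecular identifiers are described, so intervals and floors cover counting error only.

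Counts were scaled to CPM of miRNA counts, and rounded for edgeR 4.0.16 (R 4.3.3, limma 3.58.1): TMM factors, robust quasi-likelihood, miRNAs with at least 5 counts in 10% of the libraries of a group, Benjamini-Hochberg at 0.05 over the miRNAs of each fit and not across tissues. The tissue fit held tissue, arm with collection, and age. A library's profile was assigned over 725 miRNAs whose highest tissue median was over 2-fold the median over tissues, by Pearson's r, without the members. The tissue medians were taken over all libraries, those closest to another tissue included. In 11 of 44 pools, taken from the study's sample sheet, more than 1 in 3 libraries were closest to another tissue. Ratios were tested by permutation over mice.

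The alternatives were DESeq2 1.42.0, RLE size factors, no filter, limma on log2(CPM + 1) or log2(rpmm + 1), a Wilcoxon test on rpmm (here counts per 1000000 summed over the 7 classes, in place of the study's reads per 1000000 mapped), LAR or TERM alone, age, plate or replicate as a term, 1 library left out, and the libraries or pools of another profile left out. The scripts were tested on simulated data. The named miRNAs are the members, their other strands, the 5 most alike to each member and 2 literature lists. The members and lists were chosen with earlier results of these data known. In the fits of 1 tissue and for the ratios the p-values measure the spread between mice. In the tissue fit they measure the spread between libraries, of which a mouse gave several. Mice of different arms share numbers but are different animals, while tissues of an arm and collection with 1 number come from 1 mouse, which was used for the ratios.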

Additional observations from a re-analysis of the deposited data

Results flagged for a closer look

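In the liver and pancreas groups of 4 to 10 libraries and the lung groups of TERM, 42 sets of group and member were searched for a library far from the others by Dixon's test, which picks about 1 set in 20 by chance. It picked 5 values from 4 libraries, and 2 of the values came from libraries closest to another tissue.

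miR-148a-3p in lung was at 3069 CPM in HGC mouse 5 of TERM, where the other HGC libraries lay between 87.0 and 772 CPM. This library had the profile of liver, with miR-122-5p at 360672 CPM. In liver, miR-152-3p was at 118 CPM in VGC mouse 12 of LAR and between 287 and 454 CPM in the others, and that library was closest to thymus. miR-148b-3p in liver was at 261 CPM in FL mouse 16 of TERM and between 19.1 and 133 CPM in the others.

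In pancreas, VGC mouse 14 of LAR had low levels of both abundant members, with miR-148a-3p at 7588 CPM (22163 to 31401 in the others) and miR-152-3p at 900.3 CPM (2659 to 4361 in the others). Its profile was that of pancreas.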

How the results depend on the processing

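The 6 tissue differences kept direction and call in 70 of 72 alternatives. The exceptions were miR-148b-3p in pancreas, at -0.18 (Wilcoxon on rpmm, adjusted p = 0.241) and -0.32 (limma on rpmm, adjusted p = 0.0227). Of the calls over all miRNAs in pancreas 35.2% were higher in edgeR with TMM, against 57.3% in DESeq2, 50.4% with RLE, 45.2% without the libraries of another profile, 6.09% by Wilcoxon and 4.44% by limma on rpmm. In liver it was 42.3%, against 22.4% by Wilcoxon, 15.9% by limma on CPM and 21.0% by limma on rpmm.

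Member calls for FL against HGC in LAR went from 0 to 1 under DESeq2, Wilcoxon and limma on rpmm. For FL against VGC in LAR they went from 0 to 1 under DESeq2 and RLE. The share of all miRNAs called under each setting is given below for LAR against TERM alone. The 1 call for FL against HGC in TERM went to 0 under DESeq2, Wilcoxon, both limma settings, age or plate as a term, no filter, the replicate block, and without lung HGC mouse 5, the libraries or the pools of another profile. That difference, miR-148a-3p in lung, ran from -2.79 to 0.29 over the alternatives. It was 0.29 by Wilcoxon, 0.11 without the libraries and 0.0026 without the pools. The 2 calls for age in TERM went to 0 under Wilcoxon, both limma settings, plate and without the libraries of another profile, and to 1 without the pools. The interaction in TERM went from 0 to 1 under DESeq2. LAR against TERM went from 4 to 8 under DESeq2 (11.1% of all miRNAs called), 13 under Wilcoxon (19.5%), 11 under limma on rpmm (14.0%) and 7 without the pools (9.46%), and to 2 under RLE (6.71%), limma on CPM (6.08%), no filter (3.52%) and the replicate block (243 of 12373), against 6.59% in edgeR. miR-148b-3p in MAT became -0.23 without the libraries of another profile. The causes were not tested.

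The ratio of miR-148a-3p to miR-152-3p passed without the libraries (0.78) or pools (0.85) of another profile. Single libraries were left out where a group had 5 or fewer, which were 12 of brain in LAR, 13 of brain and 11 of pancreas in TERM, and only those of pancreas for LAR against TERM. Lung HGC mouse 5 of TERM was left out besides, chosen after seeing the data. For the interaction the mice of 1 number were left out. This gave 0 to 1 calls for FL against HGC in TERM (0 without lung HGC mouse 5), 0 to 1 for the interaction in TERM (1 without the mice numbered 18), 4 to 5 for LAR against TERM, and 0 for FL against HGC in LAR, FL against VGC, HGC against VGC and the interaction in LAR. It was not run for age. With mouse as a replicate block the tissue differences were 3.43, 1.54 and 1.21 in liver and 5.05, 1.03 and 3.52 in pancreas for miR-148a-3p, miR-148b-3p and miR-152-3p, and no call changed. Between arms, pairs with 1 number correlated above 0.1 throughout in 0 of 26 sets of tissue and collection, so the numbers were not read as pairing. The age comparison with the replicate block could not be estimated. Libraries with 6 counts of a member limit the precision in diaphragm and brain.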
